A study of Mus musculus with 4 samples.

Results

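Immediate early genes of the mouse molar tooth germ are described here over 5 embryonic stages. The 10 genes are the zinc finger factors Egr1, Egr2 and Egr3, the orphan nuclear receptor gene Nr4a1, the cytoskeletal gene Arc, the AP-1 genes Fos, Fosb, Jun and Junb, and Atf3, a stress-induced factor of the ATF family. They were taken by their gene names on the array, which gave 12 probes of 41174, and all 10 were among the 17400 genes measured. The choice was made with their ratios on these arrays already known, so the ratios are given as a description and carry no test. Pooled whole first molar germs of the lower jaw of C57BL/6 embryos at E11, E12, E16 and E18 (embryonic days) were each labelled with Cy5 and hybridised with pooled E14 germs labelled with Cy3, on 1 two-colour array per stage and 4 arrays in all. E14 was thus measured 4 times and each other stage 1 time, from 1 pool of a size that the labels do not give. The labels give no genotype or treatment, and the pools differ in age alone. The dyes were not swapped: E14 was Cy3 on all 4 arrays, so in a difference that sets E14 apart from every other stage, dye and stage cannot be told apart.

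Immediate early genes are transcribed within minutes of a growth factor, calcium or stress signal, from promoters already bound by factors such as SRF and CREB, and need no new protein to be switched on. Their mRNAs are short-lived, and most of their products are transcription factors that act on later genes. ERK signalling downstream of FGF receptors, which the tooth germ uses from its first thickening to the bell, is one of the inputs known to switch them on. From E11 to E18 the molar germ passes from an epithelial thickening through the bud and the cap, with E14 near the cap, to the bell.

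The 10 genes followed more than 1 course. Egr1, Egr2, Egr3, Nr4a1 and Arc stood at least 2-fold below E14 on all 4 arrays, that is, both before and after E14. With arrays centred on their median in place of an intensity-dependent correction, 2 of these 5, Egr2 and Egr3, stood so on all 4. On that scale the median of all measured genes was itself above 0, at 0.40, 0.64, 0.57 and 0.17 (E11, E12, E16 and E18). Relative to it, Egr1 and Arc also stayed at least 2-fold lower on all 4, while Nr4a1 did not. Jun, Junb and Atf3 were below E14 at E11 and E12 and above it at E16 and E18, although none of them by 2-fold on the upper side. With median centring Jun was above E14 on all 4 arrays, and Jun and Junb were over 2-fold higher at E16. Relative to the median of all genes on that scale, Jun was at -0.17, -0.49, 1.08 and 0.55. Junb was then under 2-fold higher at E16, at 0.65. Fos, dim at E11 and E12, stood highest at E16. Fosb stayed near background. A log2 ratio below is that of a stage over E14, and its error is the SD of the E14 level over the 4 hybridisations, which is technical. No stage has a second pool, so precision is limited by the number of arrays, and p-values are not given.

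**Figure D1:**
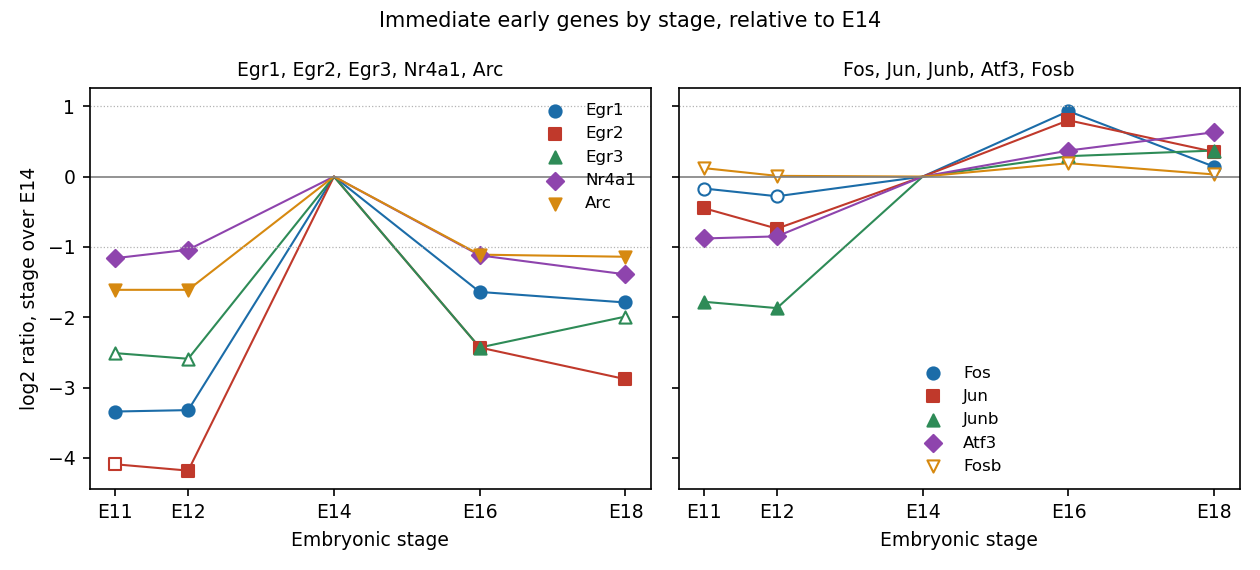
Log2 ratio of each stage over E14 (vertical axis) against embryonic stage (horizontal axis) for the probe that stands for each gene, with E14 at 0 by construction. Filled symbols were well above background in both channels and open symbols were not; dotted lines mark 2-fold. Egr1, Egr2, Egr3, Nr4a1 and Arc lie below -1 on all 4 arrays, and Jun, Junb and Atf3 cross 0 between E12 and E16.

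Across the array, 4.86%, 2.63%, 1.7% and 3.84% of measured genes were at least 2-fold lower than E14 (E11, E12, E16 and E18 in turn). Of the 10 genes, 6 were at least 2-fold lower at each of E11 and E12, and 5 at each of E16 and E18. None was at least 2-fold higher than E14 on any array, where 1.6%, 0.328%, 2.01% and 3.82% of measured genes were at E11, E12, E16 and E18. At least 2-fold lower on all 4 arrays were 61 of 17400 genes, or 0.351%, and 5 of the 10. Since the genes were chosen from these contrasts, nothing is read from the counts. The median log2 ratio of the 10 was -1.39, -1.33, -0.46 and -0.56 at E11, E12, E16 and E18, and that of all measured genes lay between -0.02 and 0.01.

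The Egr factors bind a GC-rich site and couple growth factor signals to later transcription. Egr1 had a log2 level of 6.28 at E11 and 6.23 at E12, between 9.55 and 9.68 at E14 over the 4 hybridisations, and 8.04 at E16 and 7.86 at E18. E14 was the highest stage and E11 and E12 the lowest, with E16 and E18 between them, and no other stage reached the 4 E14 values. Its ratios were -3.34, -3.32, -1.64 and -1.79 at E11, E12, E16 and E18 (SD of E14 0.055, n = 4), which is 10.1-fold, 9.98-fold, 3.11-fold and 3.45-fold lower than at E14. The single Egr1 spot was well above background in both channels on all 4 arrays. Where arrays were only centred on their median, with no intensity-dependent correction, its ratio at E16 was -0.80, under 2-fold, and at the other stages it stayed over 2-fold lower. Relative to the median of all genes on that scale, Egr1 lay at -3.16, -3.16, -1.37 and -1.58. Neighbouring stages were set against a limit of 2 SDs of a difference, taken from the E14 spread. That spread is of the Cy3 channel and measures neither dim Cy5 signals nor pools. For Egr2, the SD between repeat spots was 0.208 at E11 and 0.219 at E12, against 0.030 for its E14 level. The limit is thus a rough guide. For Egr1 it was 0.16 log2 units, and E11 and E12 lay closer together than that, as did E16 and E18. These are levels in bulk tissue, in which fewer cells that express a gene and less RNA per cell cannot be told apart.

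Egr2, the Egr factor required for hindbrain patterning and myelination, was, with Egr3, among the genes farthest below E14. Its log2 level was 5.68 at E11 and 5.6 at E12, between 9.77 and 9.84 at E14, 7.38 at E16 and 6.95 at E18. The ratios were -4.09, -4.18, -2.43 and -2.88 (SD of E14 0.030, n = 4). At E12, E16 and E18 this is 18.2-fold, 5.40-fold and 7.39-fold lower than at E14. At E11 Cy5 was well above background on 0 of 9 spots, so only a bound holds there, and Egr2 was at least 14.2-fold lower. At E12 Cy5 was well above background on 8 of 10 spots. The probe was printed 10 times, and its spots lay between -4.41 and -3.80 at E11 and between -4.49 and -3.82 at E12, against -2.51 to -2.31 at E16 and -3.01 to -2.77 at E18. No spot of the earlier stages overlapped the later ones.

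Egr3, a close relative that Egr1 and Egr2 share targets with, was measured by 2 probes that differed. On the brighter probe the log2 level was 5.66 at E11, 5.57 at E12, between 8.17 and 8.25 at E14, 5.82 at E16 and 6.22 at E18. Its ratios were -2.51, -2.59, -2.43 and -1.99 (SD of E14 0.041, n = 4), but Cy5 was well above background at E16 only, at 5.39-fold lower than E14. Elsewhere Egr3 was at least 4.68-fold lower at E11, at least 5.94-fold at E12 and at least 3.98-fold at E18. Every stage other than E14 thus lay near the floor, and the order among them is not resolved. The dimmer probe, made to another transcript record of the gene, had ratios of -0.36, -0.45, -0.40 and -0.34, with Cy5 not well above background at any stage. The bounds on the dimmer probe were 1.26-fold to 1.37-fold, in the same direction, and equal its observed ratios.

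Nr4a1, also called Nur77, is a nuclear receptor without a known ligand that growth factors and calcium induce. Its log2 level was 8.97 at E11, 9.13 at E12, between 10.10 and 10.17 at E14, 8.98 at E16 and 8.72 at E18. Its ratios of -1.16, -1.04, -1.12 and -1.39 (SD of E14 0.031, n = 4) are 2.24-fold, 2.06-fold, 2.17-fold and 2.62-fold lower than E14. The 4 other stages spanned 0.35 log2 units among themselves, while the gap from the highest of them to E14 was 1.04. The difference therefore sets E14 against all the rest, where dye and stage cannot be told apart. Before normalization its mean signal was 714.7 in Cy5 and 720.7 in Cy3 on the E11 array, so the ratio rests on the intensity-dependent correction. With median centring alone the ratios were -0.27, 0.08, -0.23 and -0.95, turned at E12. On that scale the median of all genes stood at 0.40, 0.64, 0.57 and 0.17 at E11, E12, E16 and E18, and relative to it Nr4a1 lay at -0.67, -0.56, -0.80 and -1.12.

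Arc, known from neurons as a synaptic activity gene, was a dimmer member of the same group. Its log2 level was 6.35 at E11, 6.43 at E12, between 7.95 and 8.05 at E14, 6.84 at E16 and 6.85 at E18. The ratios were -1.61, -1.61, -1.11 and -1.14 (SD of E14 0.042, n = 4), or 3.06-fold, 3.06-fold, 2.16-fold and 2.21-fold lower than E14, well above background in both channels throughout. E11 and E12 were closer to each other than the limit of 0.12, as were E16 and E18. Median centring gave -1.26, -1.04, -0.54 and -0.93, so Arc was then under 2-fold at E16 and E18. Relative to the median of all genes on that scale, Arc lay at -1.66, -1.68, -1.11 and -1.10, at least 2-fold lower on each array.

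**Figure D2:**
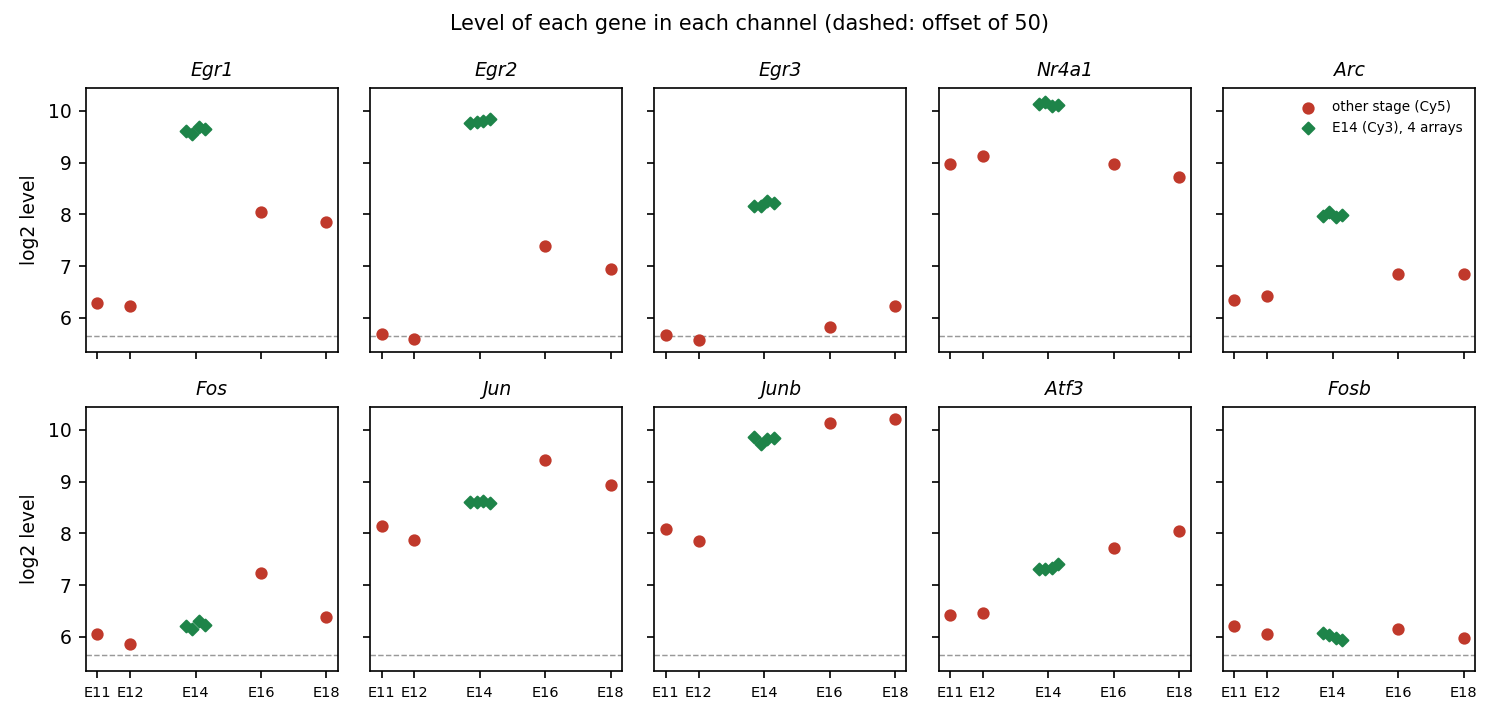
Log2 level after normalization (vertical axis) by stage (horizontal axis) for the 10 genes; red circles are the other stages in Cy5, 1 pool each, and green diamonds are E14 in Cy3 on the 4 arrays. The dashed line is the log2 of the offset of 50. In Egr1, Egr2, Egr3, Nr4a1 and Arc all 4 E14 values lie above every other stage, and the 4 E14 values of a gene lie close together.

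The AP-1 genes encode basic leucine zipper proteins that pair, one Jun protein with a Fos or another Jun protein. Jun had a log2 level of 8.15 at E11, 7.87 at E12, between 8.58 and 8.62 at E14, 9.42 at E16 and 8.93 at E18. Its ratios were -0.45, -0.74, 0.80 and 0.35 (SD of E14 0.016, n = 4), under 2-fold on each array. The probe was printed 10 times, and its spots lay between -0.51 and -0.37 at E11, -0.85 and -0.62 at E12, 0.74 and 0.84 at E16, and 0.28 and 0.40 at E18. The spots of the 4 stages did not overlap, which shows the precision of the spots and not of the pools. With median centring Jun was above E14 on all 4 arrays, at 0.23, 0.15, 1.65 and 0.72, over 2-fold at E16. Relative to the median of all genes on that scale it lay at -0.17, -0.49, 1.08 and 0.55.

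Junb, which often restrains Jun, had the widest span among the AP-1 genes. On its brighter probe the log2 level was 8.08 at E11, 7.86 at E12, between 9.73 and 9.86 at E14, 10.13 at E16 and 10.21 at E18. The ratios were -1.78, -1.87, 0.29 and 0.37 (SD of E14 0.058, n = 4), 3.44-fold and 3.66-fold lower than E14 at E11 and E12. With median centring they were -0.99, -0.88, 1.22 and 0.87, so that no value was then 2-fold lower and E16 was over 2-fold higher than E14. Relative to the median of all genes on that scale, Junb lay at -1.39, -1.52, 0.65 and 0.70. The second probe, which overlaps the first on the genome, gave -1.19, -1.24, 0.39 and 0.50 (SD of E14 0.039, n = 4). Both probes placed E11 and E12 below E14 and E16 and E18 above it, and the earlier values differed between probes by more than the E14 spread.

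Atf3 had a log2 level of 6.43 at E11, 6.46 at E12, between 7.31 and 7.41 at E14, 7.71 at E16 and 8.04 at E18. Its ratios were -0.88, -0.85, 0.37 and 0.63 (SD of E14 0.046, n = 4). E11 and E12 were closer than the limit of 0.13, and E14, E16 and E18 followed in that order.

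Fos, the partner of Jun in the classical AP-1 dimer, was dim. Its log2 level was 6.05 at E11, 5.87 at E12, between 6.15 and 6.31 at E14, 7.24 at E16 and 6.38 at E18. Cy5 was well above background on 1 of 10 spots at E11, 0 of 10 at E12 and all 9 used at E16 and at E18. The computed bounds for Fos were 1.12-fold lower than E14 at E11 and 1.21-fold lower at E12, equal to the observed ratios. The ratios at E16 and E18 were 0.93 and 0.14 (SD of E14 0.063, n = 4), 1.91-fold and 1.1-fold higher than E14. In the order of levels, E12, E11, E14 and E18 each lay within the limit of 0.18 of the next, and E16 did not. Only neighbours in this order were compared. Stages farther apart in it can differ by more, as at E12, where the ratio to E14 was -0.28 with Cy5 dim. The spots at E16 lay between 0.87 and 1.03, above all spots of E18, which lay between -0.01 and 0.23. The added offset of 50 pulls such a dim gene towards 0, and the scanner software's own log2 ratio at E16 was 2.51. Fosb, a second Fos protein, was not well above background in Cy3 on any array. Its computed bounds were 1.09-fold above E14 at E11 and at E16, and no fold is given at E12 and E18, where both channels were dim. No computed ratio of Fosb to E14 was past the limit of 0.19, so no difference from E14 is shown for it on this scale. The offset pulls it towards 0 as well, and the scanner software's log2 ratio at E16 was 2.23, with Cy3 dim.

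**Figure D3:**
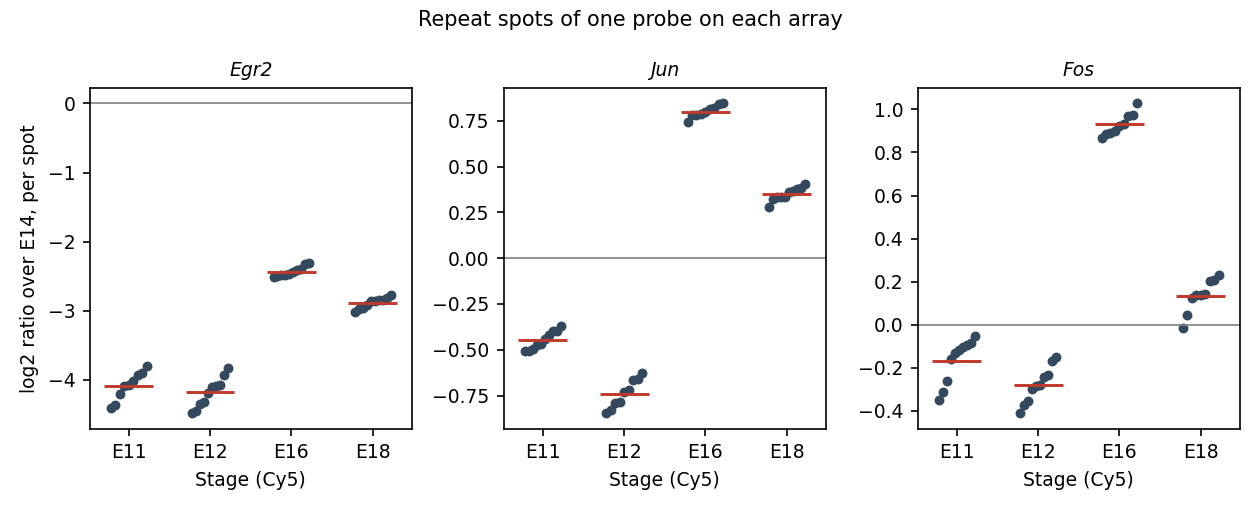
Log2 ratio over E14 of each repeat spot (points, sorted from low to high, vertical axis) by stage (horizontal axis) for the probes of Egr2, Jun and Fos, which were printed 10 times per array; red lines are the means, and spots with outlier flags are left out. The vertical axes differ. In Egr2 the E11 and E12 spots lie below the E16 and E18 spots, and in Jun the 4 stages do not overlap.

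Stages other than E14 were then compared with each other. In these differences the E14 level and a dye effect common to both arrays cancel, while E11 and E12 shared a slide and E16 and E18 the other, so for E16 over E12 and E18 over E11 stage and slide cannot be told apart. The E14 level differed between the slides by -0.11 to 0.09 log2 units over the 10 genes (second slide minus first). That level is of Cy3 after scaling across arrays, so it does not measure a slide effect on the Cy5 stages or on the ratios.

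Between E16 and E12, 6 of the 10 genes were at least 2-fold higher at E16, against 4.8% of all measured genes, and none was lower, against 1.48%. Junb was 4.49-fold higher at E16 (log2 difference 2.17), Egr2 3.36-fold (1.75), Egr1 3.21-fold (1.68), Jun 2.91-fold (1.54) and Atf3 2.34-fold (1.23). Fos, not well above background at E12, was at least 2.31-fold higher. Arc was at 0.50 and Nr4a1 at -0.08. Egr3, dim at E12, had a computed bound of 1.1-fold higher, and its order between these stages is not resolved. Fosb, dim in Cy5 at E12, is given no difference. The Egr2 level at E12 lay near the added offset, so its fold depends on the offset. Egr1 and Egr2, although higher at E16 than at E12, stayed under E14 at both stages. The median difference of the 10 genes was 1.22, and that of all genes 0.01.

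Between E18 and E11, the computed difference was at least 2-fold upward in 4 of the 10, against 5.93% of all measured genes, and downward in none, against 2.52%. For 3 of the 4 both stages were well above background, Junb at 2.15, Egr1 at 1.56 and Atf3 at 1.51. The other was Egr2, dim at E11, which was at least 1.92-fold higher at E18, so 2-fold is not shown for it. Nr4a1 was at -0.23. Within the slides, where the stages compared were also closer in age, the steps were smaller. Between E12 and E11 none of the 10 was 2-fold higher, against 0.667% of genes, or lower, against 0.305%, and Jun moved most, at -0.29. Between E18 and E16 none was higher, against 0.489%, or lower, against 0.879%. Fos, at -0.80, was the nearest to 2-fold there. It was followed by Egr2 at -0.45 and Jun at -0.45, while Egr3 was dim at E18.

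**Figure D4:**
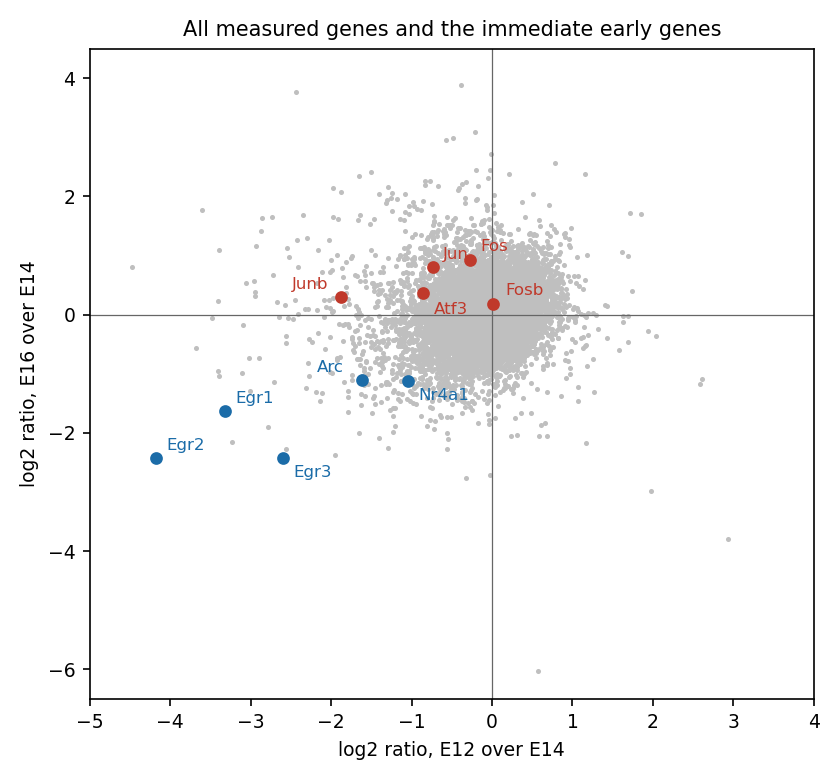
Log2 ratio of E16 over E14 (vertical axis) against that of E12 over E14 (horizontal axis) for all 17400 measured genes (grey) and the 10 immediate early genes (coloured). Egr1, Egr2, Egr3, Nr4a1 and Arc lie in the lower left, below E14 at both stages, and Junb, Jun, Atf3 and Fos in the upper left.

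Genes were ranked by the highest of their 4 ratios, from the lowest up, which puts first the genes that stayed farthest under E14 on every array. Egr2 ranked 1, Egr1 7, Arc 46 and Nr4a1 52 of 17400, and Egr3, whose highest ratio was at E18 where Cy5 was dim, is given no rank. Other genes in this order can be dim as well, so the ranks are approximate. Among the other genes well above background throughout, the lowest were the collagen VI chain gene Col6a3 with a highest ratio of -2.27, the matrix proteoglycan gene Prelp (-2.16), the ubiquitin ligase gene Trim9 (-1.96), the potassium channel gene Kcna1 (-1.89), a second collagen VI chain gene, Col6a2 (-1.53), and the protease inhibitor gene Timp1 (-1.45). At least 2-fold higher than E14 on all 4 arrays were 2 genes of 17400, against 61 lower. A ratio under 0 on all 4 arrays was held by 21.8% of genes, and one above 0 by 21.5%.

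The 6 genes whose 4 ratios lay closest to those of Egr1, by the root-mean-square difference among 13628 candidates, were Loxl1, a lysyl oxidase relative that acts on elastic fibres (0.43 log2 units), Kcna1 (0.46), Prelp (0.50), the collagen-binding proteoglycan gene Dcn (0.55), the cadherin gene Cdh13 (0.55) and the gelatinase gene Mmp9 (0.56). Loxl1, for example, had ratios of -3.22, -3.40, -0.95 and -2.27. Arc stood at 1.28 from Egr1 and Nr4a1 at 1.61. Egr2 and Egr3, with only bounds at some stages, are not placed in this order.

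Other immediate early genes were listed by their known behaviour in stimulated cells, with earlier results of these data known, and 32 of 38 were measured. At E11, E12, E16 and E18, 11, 5, 0 and 1 of the 32 were at least 2-fold lower than E14, and 0, 0, 1 and 3 at least 2-fold higher. Of all measured genes, 4.86%, 2.63%, 1.7% and 3.84% were lower, and 1.6%, 0.328%, 2.01% and 3.82% higher. With median centring 2, 2 and 0 were lower at E11, E12 and E18, and 3, 5 and 10 higher at E11, E12 and E16. On that scale the median of all measured genes stood at 0.40, 0.64, 0.57 and 0.17 at E11, E12, E16 and E18. With the intensity-dependent correction, the medians of the 32 were -0.48, -0.53, 0.01 and 0.04. None of the 32 was 2-fold lower on all 4 arrays, against 0.351% of all measured genes, and 10 were below E14 on all 4, against 21.8%. Below it at E11 and E12 and above it at E16 and E18 were 13, against 11.5%. Between E16 and E12, 8 were at least 2-fold higher, against 4.8%, and 0 lower, against 1.48%, with a median of 0.52.

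Of the 18 other transcription factors 14 were measured. Egr4, Fosl1, Nr4a3 and Npas4 were not. Klf10, induced by TGF-beta, had ratios of -1.40, -1.5, -0.46 and -0.45 at E11, E12, E16 and E18. Jund, the most constant of the Jun genes, was at -0.56, -0.68, -0.33 and -0.96. Bhlhe40, a repressor of the circadian clock, stood at -1.46, -1.47, 0.40 and 0.26, with Cy5 not well above background at E11. At the upper end were Crem, a CREB relative, at 0.30, -0.12, 0.39 and 0.48, Ier5 at -0.73, -0.30, 0.09 and 0.60, and the small Maf gene Maff at -0.30, -0.71, 0.01 and 0.10. Nr4a2, the measured relative of Nr4a1, was chosen for mention after its values were seen and was at -0.40, -0.39, -0.38 and -0.49.

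Of 20 effector genes 18 were measured, and Dusp5 and Ptgs2 were not. Gadd45g, a growth arrest and DNA damage gene, was the lowest, at -2.62, -2.29, -0.82 and -0.90. Gadd45b was at -1.46, -1.43, 0.50 and 0.28, and Dusp2, a MAP kinase phosphatase gene, at -1.03, -1.0, -0.59 and 0.06. The highest were the small GTPase gene Rhob at 0.00, -0.08, 0.57 and 1.09, the phosphatase gene Dusp1 at 0.15, -0.06, 0.75 and 0.61, and the kinase gene Sgk1 at -0.11, -0.58, 0.89 and 1.17. Gadd45g was below E14 at every stage, whereas Rhob, Dusp1 and Sgk1 each had their own highest ratio at E16 or E18.

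**Figure D5:**
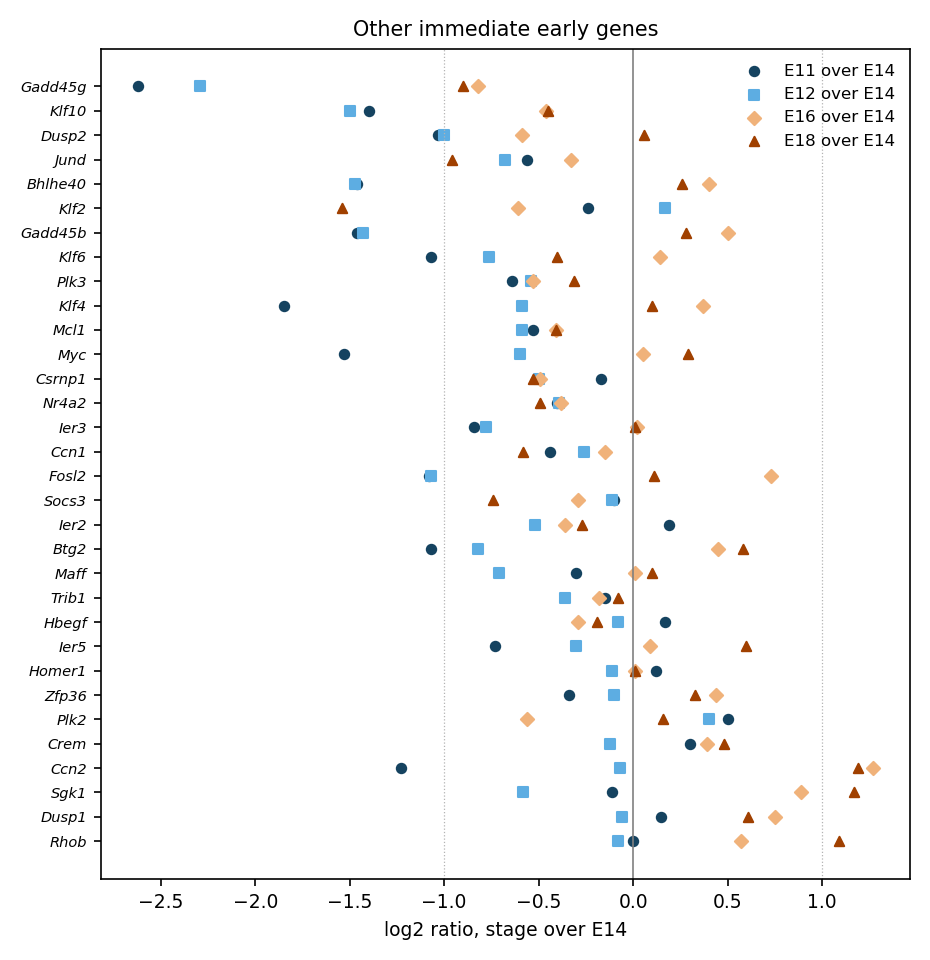
Log2 ratio over E14 (horizontal axis) of the 32 other immediate early genes measured (rows, by mean ratio) at E11, E12, E16 and E18, 1 array each; dotted lines mark 2-fold. At the top, Gadd45g lies below 0 at all 4 stages, and at the bottom, Rhob, Dusp1 and Sgk1 lie above 0 at E16 and E18.

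Upstream of these genes, SRF with its partners and CREB act on the promoters, and Nab1 and Nab2 bind Egr proteins and repress them. Of 9 such genes 8 were measured and none was 2-fold lower on any array. Srf was at -0.06, 0.11, 0.28 and 0.33, Creb1 at -0.16, -0.35, -0.41 and -0.57, and the SRF coactivator gene Mrtfa at -0.85, -0.31, -0.25 and -0.66. Nab2, itself a target of Egr factors, was below E14 on all 4 arrays, at -0.68, -0.85, -0.71 and -0.81, while Nab1 was at -0.57, -0.52, 0.94 and 1.49. All 9 genes of ERK feedback, which follow FGF signalling, were measured. Etv4 was at -1.39, -1.64, -0.76 and -0.24 and Dusp6 at -0.20, -0.83, -0.94 and -1.23, while Spry2 was at 0.51, -0.04, 0.01 and 0.52 and Etv5 between -0.02 and 0.12. The list medians were -0.07, -0.08, -0.14 and 0.04, near those of all genes.

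Promoter sequence was available for 7 of the 10 genes, from RefSeq (GRCm38.p6), as the 250 bases before a transcript start. It is shown because signal-responsive sites for SRF and CREB are the known entry points to these genes. Windows were searched on both strands for the CArG box (the SRF site), the CREB half-site TGACG, TGACNTCA, the AP-1 site TGANTCA and the Egr site GCGNGGGCG. TGACG overlaps a TGACNTCA match where N is G. Of 32851 windows of this length, 1.47%, 17.77%, 7.49%, 6.75% and 4.7% held them. These shares are per window, whereas Egr2 was searched in 5 windows and each other gene in 1, so gene counts and shares are not alike. TGACG lay in a window of 6 of the 7 genes (Atf3, Egr2, Fos, Fosb, Junb and Nr4a1). The CArG box lay in some but not all windows of Egr2, TGACNTCA in that of Jun, the Egr site in those of Fosb and Nr4a1, and the AP-1 site in none. The matches are letters in a window and say nothing of binding here. Egr2 and Nr4a1, lower than E14 on all arrays, are set beside Fos and Jun, and capitals mark matches on either strand. The Egr2 stretch is 30 bases at chr10:67537793-67537822 on the plus strand, starting 76 bases before a start. The others are whole windows, Nr4a1 at chr15:101266596-101266845 (plus), Fos at chr12:85473640-85473889 (plus) and Jun at chr4:95052223-95052472 (minus strand, printed in the direction of the gene).
Egr2: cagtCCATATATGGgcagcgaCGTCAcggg
Nr4a1: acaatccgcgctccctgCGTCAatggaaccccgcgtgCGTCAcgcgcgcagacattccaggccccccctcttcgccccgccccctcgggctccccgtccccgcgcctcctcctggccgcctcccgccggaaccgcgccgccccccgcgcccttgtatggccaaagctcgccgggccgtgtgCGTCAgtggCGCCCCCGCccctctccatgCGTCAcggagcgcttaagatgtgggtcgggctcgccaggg
Fos: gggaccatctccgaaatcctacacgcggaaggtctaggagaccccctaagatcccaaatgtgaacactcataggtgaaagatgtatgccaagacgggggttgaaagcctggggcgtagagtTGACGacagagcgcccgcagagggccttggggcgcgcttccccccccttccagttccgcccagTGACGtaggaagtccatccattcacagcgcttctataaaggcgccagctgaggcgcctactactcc
Jun: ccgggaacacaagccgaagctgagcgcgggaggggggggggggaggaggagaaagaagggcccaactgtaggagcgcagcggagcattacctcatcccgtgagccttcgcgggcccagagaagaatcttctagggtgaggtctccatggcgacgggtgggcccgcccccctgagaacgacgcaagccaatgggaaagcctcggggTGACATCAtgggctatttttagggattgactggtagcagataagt

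The Egr2 stretch holds a CArG box and, 7 bases on, a TGACG read on the other strand. In the Nr4a1 window TGACG occurs 4 times, each on the other strand, with 1 Egr site. The Fos window holds 2 TGACG. Whether such matches go with the course of a gene over the stages was not tested.

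The array probes are 60 bases long, and their positions are given on build mm7, per the file headers. The Egr1 probe lies at chr18:35240842-35240901, that of Egr2 at chr10:67145376-67145435, and those of Egr3 at chr14:64726656-64726715 (brighter) and chr14:64723504-64723563. The Nr4a1 probe lies at chr15:101260484-101260543 and the Arc probe at chr15:74749717-74749776. The Fos probe is at chr12:83478431-83478490, Fosb at chr7:16985502-16985561, Jun at chr4:94441779-94441838, and Atf3 at chr1:190724174-190724233. The Junb probes, at chr8:83563059-83563118 and chr8:83563097-83563156, share bases. Their place within the transcripts (coding part or UTR) was not looked up.

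Cell type markers moved with stage too. The dental epithelium markers Cdh1, Krt14, Krt5, Epcam and Shh, all 5 measured, had median ratios of -1.63, -0.77, 1.31 and 1.26 at E11, E12, E16 and E18, with Krt5 at -3.35, -2.16, 1.09 and 0.56. The median thus stood below E14 before it and above it after (Krt14 was at -0.35 at E18), as did Jun, Junb and Atf3, and their part in that result was not tested. The 6 dental mesenchyme markers had medians of -0.29, 0.00, -0.35 and -1.33, with Col1a1 at -3.51, -2.28, -0.41 and -1.74 and Twist1 at 0.81, 0.46, 0.05 and -0.89. Of 5 erythroid markers, Hbb-y was at 1.5, 0.57, -6.03 and -7.11. Medians of the endothelial (5 of 5 measured), macrophage (5 of 5), neuron (4 of 5) and skeletal muscle (3 of 5) markers stayed between -0.56 and 0.36. Genes of the heat shock response, 6 of 7 measured, were mixed. Hspa1a, the inducible chaperone, was at -1.6, -1.09, 1.6 and 1.30 and Hspb1 at -1.38, -0.56, 1.65 and 1.38, whereas Hspa8 was at -0.09, -0.33, -0.30 and -0.47. Their part in the Jun, Junb and Atf3 result was not tested.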

How the data were processed

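Total RNA of pooled molar germs was hybridised as E11, E12, E16 or E18 (Cy5) with E14 (Cy3), per the labels. Per the file headers, Agilent Feature Extraction 10.5.1.1 read the arrays. The deposited scanner files give each spot's linear intensity, flags and a LogRatio, the log10 of Cy5 over Cy3. The deposited value table holds the same log10 ratios: 100% of values on each array matched, and column medians were 0.

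Ratios on the log2 scale came from the deposited intensities through limma 3.58.1 (R 4.3.3): normexp background correction with an offset of 50, which pulls dim genes towards 0, then loess within arrays with weight 0 for controls. Controls and outlier-flagged spots (92 to 126 an array, 5 spot values among the 12 probes described) were dropped. None was saturated. Levels are the channels after loess and Aquantile. A gene took its brightest probe, and was measured where Cy5 cleared background on 1 or more arrays, or Cy3 on 2 or more. A dim channel gave a bound. The bright channel was divided by the dim one or by the array's lowest signal well above background, whichever was higher, and a dye bias would carry into it. Where the dim channel was the higher, the bound equals the observed ratio. Over 245 probes with 10 spots the median SD between spots was 0.056 to 0.067 log2 units, and the E14 SD over the 4 arrays one of 0.051 over genes. Names came by accession from a RefSeq table for 22951 probes (GRCm38.p6, names only), by symbol for 6659 and by synonym for 3109, while 8455 stayed under the name on the array.

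Genes at least 2-fold apart were counted with no test. Genes and lists were chosen with earlier results of these data known. The text names all 10 immediate early genes, up to 3 measured genes at either end of each other list by mean ratio, the 6 genes closest to Egr1 and the 6 with the lowest highest ratio. The ratio step was run on simulated data with the same dye factor at all intensities. The choice between loess and median centring was therefore not tested by it. The 6 alternatives were no background correction, an offset of 10, scanner software ratios, median centring, the mean of all probes, and only probes well above background in both channels on every array. 1 listed dental epithelium marker is not reported here.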

Additional observations from a re-analysis of the deposited data

Results flagged for a closer look

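Jun, Junb and Atf3 were picked out because both later stages lay above E14 and both earlier stages below it, each by more than 3 SDs of the E14 level. That SD is of the Cy3 channel and measures neither the Cy5 stages nor the pools. Fos lay on the same sides, but by less than that at E11 and E18, and was dim at E11 and E12. The mean log2 ratio at E16 and E18 minus that at E11 and E12 was 1.17 for Jun, 2.16 for Junb and 1.37 for Atf3. The difference was not tested, since each stage is 1 pool, and the earlier stages shared a slide, as did the later ones. Of all measured genes, 2001 of 17400 (11.5%) were below E14 at both earlier stages and above it at both later ones by any amount, as were 4 of the 10, which were chosen with these ratios known. With median centring Jun was above E14 at the earlier stages too, though below the median of all genes on that scale, at -0.17 and -0.49.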

How the results depend on the processing

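Of the 22 ratios of the 10 genes that were at least 2-fold, all 22 stayed so without background correction, with an offset of 10, with scanner software ratios and with the mean of all probes, and 13 with median centring, where 21 kept their sign. Nr4a1 at E12 turned to 0.08 with median centring. The 5 genes at least 2-fold below E14 on every array became 2 (Egr2 and Egr3) with median centring, and 3 (Egr1, Nr4a1 and Arc) with only probes well above background in both channels, where 6 of the 10 genes are left by construction. With median centring the median of all measured genes was 0.40, 0.64, 0.57 and 0.17 from E11 to E18. Relative to it, Egr1 and Arc stayed at least 2-fold lower on every array. With median centring 2 of the 10 were lower than E14 at E16 and 3 higher, 3 were lower at E18, and 1 lay 2-fold apart between E18 and E16. Their median was -0.80, -0.66, -0.07 and -0.47 from E11 to E18, and genes 2-fold from E14 numbered 4567, 5802, 4313 and 2315, against 1125, 515, 645 and 1334, with 7 lower on every array. Of those genes 6.26%, 2.17%, 0.951% and 12.5% were lower, against 75.2%, 88.9%, 45.7% and 50.1%. Other immediate early genes with median centring were 2-fold lower in 2 cases at E11, 2 at E12 and 0 at E18, and higher in 3, 5 and 10 at E11, E12 and E16.

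With scanner software ratios the median of the 10 was -1.83, -2.22 and -0.68 at E11, E12 and E18, 2 were higher at E16, and 2 lay 2-fold apart both between E12 and E11 and between E18 and E16. Genes 2-fold from E14 numbered 3847, 2248, 2874 and 4508, of which 60.0%, 62.0%, 48.7% and 54.0% were lower, with 227 lower on every array. Other immediate early genes were lower in 8 cases at E12 and 1 at E16, and higher in 2 at E16. An offset of 10 gave medians of -1.69, -1.67 and -0.71 at E11, E12 and E18, 1 of the 10 higher at E16, 1 apart between E18 and E16, counts of 1980, 946, 1233 and 2261, and 120 genes lower on every array. No background correction gave medians of -1.59, -1.54 and -0.67, 1 higher at E16, 1 apart between E18 and E16, and 100 genes lower on every array. The mean of all probes gave a median of -1.30 at E11 and 0 other immediate early genes lower at E18. With only bright probes 3 of the 6 genes left were lower at E16 and 3 at E18, and the median at E18 was -0.40. Of their 24 ratios 18 lay below 0, against 28 of 40 for the 10 genes. Apart from the effect of leaving genes out, the cause of these changes was not tested.

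No paired analysis was possible because each stage has 1 array and no replicate. Dim signal in Cy5 limits Egr2 at E11, Egr3 at E11, E12 and E18, and Fos at E11 and E12 to bounds. The absence of a dye swap limits every difference between E14 and all other stages, and the slide every difference across E14.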
